A study of Mus musculus with 22 samples.

Results

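The germ cells of the fetal mouse testis at E14.5 (E for embryonic day) were compared between Tet1-KO and Tet1-WT embryos. The members were chosen by the labels alone, as the male (XY) libraries of that stage, and they made up 4 of the 22 RNA-seq libraries of the series: 2 of E14.5 male Tet1-KO and 2 of E14.5 male Tet1-WT cells. The other libraries compared here were 4 of E14.5 female (XX) and 4 of E12.5 male cells, each again 2 Tet1-KO and 2 Tet1-WT. Libraries of E10.5 and of E12.5 female cells, of both genotypes, entered only the shared fit of 20 libraries in 10 groups. That fit set the filter, the scaling and the spread. All embryos came from intercrosses of Tet1-heterozygous parents that carried the GOF18ΔPE-EGFP reporter, so cells of both genotypes expressed a green fluorescent protein driven by a regulatory region of Pou5f1 (Oct4), and the fluorescent germ cells were sorted. Each library pooled RNA of 2 to 6 embryos of 1 genotype, stage and sex (1000 to 8000 cells). The Tet1 allele was not named in the labels, and the labels did not say whether the pools came from separate litters. The p-values therefore measure only the spread between the 20 libraries of the shared fit.

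Tet1 is an enzyme that oxidises 5-methylcytosine in DNA, a step towards removal of the methyl mark. Primordial germ cells lose most DNA methylation on their way to the gonad, and a set of germline genes with CpG-rich promoters, needed for transposon defence and for meiosis, depends on this loss. After sex determination the germ cells of a testis become gonocytes (prospermatogonia): they stop dividing, turn down pluripotency genes and turn on a male programme that includes Nanos2 and the piRNA pathway, whereas those of an ovary enter meiosis.

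The 4 E14.5 male libraries held 16605153 and 18063212 counts (Tet1-KO libraries a and b) and 17251851 and 25899505 counts (Tet1-WT libraries 1 and 2). Levels are given in CPM, counts relative to the library total after TMM scaling. With 1 CPM added to each level, which damps gaps in genes at low levels, the Tet1-KO pair differed more than 2-fold for 3.6% of genes. The Tet1-WT pair did so for 11.7%. In those terms the Tet1-WT pair was the less alike of the 2 pairs.

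Tet1 itself had 99.5 and 79.9 CPM in E14.5 male Tet1-KO cells, against 218 and 155 CPM in Tet1-WT cells. The groups did not overlap, but the log2 change of −1.05 (SE 0.36) did not pass the test (adjusted p = 0.292 in edgeR's quasi-likelihood test). Tet1 also did not pass in E14.5 females, with 21 and 25.8 CPM in Tet1-KO cells, against 35.2 and 49.2 CPM in Tet1-WT cells, nor in E12.5 males, with 79.3 and 84.4 CPM against 178 and 309 CPM. Counts over a whole gene do not show which exons an allele lacks, so they check the labels only in part.

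Germ cell markers were measured at high levels in all 4 libraries. Summed over 12 germ cell identity genes, the level was 10634 and 10431 CPM in Tet1-KO and 10843 and 11415 CPM in Tet1-WT cells. Single members were less equal than the sum. Of the 12, 3 (Ddx4, Dazl and Mael) had both Tet1-KO libraries below both Tet1-WT libraries (18.7% of all genes). In 1 both lay above (24.9%). Ddx4, an RNA helicase of germ cells, had 956 and 961 CPM in Tet1-KO and 1060 and 1160 CPM in Tet1-WT cells. Dppa3, a germ cell and oocyte factor that protects DNA methylation, had 6320 and 6230 CPM in Tet1-KO and 5950 and 6290 CPM in Tet1-WT cells. It made up most of the sum in each library. The Y-linked gene Eif2s3y lay between 255 and 289 CPM in all 4 libraries and at 0 in the E14.5 female ones, and Nanos2, the RNA-binding factor of male germ cells, was present in all 4 male libraries. The markers of other cells were not equal between the genotypes and are given with the last gene groups.

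Few genes separated the genotypes in E14.5 males. Of 17567 genes tested, 18 were called (adjusted p under 0.05), which is 0.102%; 14 were higher in Tet1-KO cells (0.0797%) and 4 lower (0.0228%). At an unadjusted p under 0.05 there were 1815 genes (10.3%), 1271 higher (7.24%) and 544 lower (3.1%). The same fit called 1168 genes (6.65%) in E14.5 females, 590 higher (3.36%) and 578 lower (3.29%), and 186 (1.06%) in E12.5 males, 21 higher (0.12%) and 165 lower (0.939%). Other tests of the same libraries drew the line elsewhere, with 368 genes called by DESeq2 and 112 by limma voom. All 18 were among the 368 and 12 were among the 112. Without Tet1-KO library a none was called by edgeR, although 1057 of 19086 genes had an unadjusted p under 0.05, and without Tet1-WT library 2 it called 3, 1 of them (Prom1) among the 18. Without Tet1-KO library b it called 7 and without Tet1-WT library 1 it called 44. The 4 libraries fitted alone gave 0 calls, with 2072 genes at an unadjusted p under 0.05.

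Of the 10 rises among genes at 5 CPM or more, Ldhb, Gstm2, Slc29a1 and Galnt7 encode enzymes or a transporter. Ldhb, the lactate dehydrogenase subunit that favours the use of lactate, had 1380 and 1340 CPM in Tet1-KO cells, against 497 and 574 CPM in Tet1-WT cells (log2 change 1.34, SE 0.2, adjusted p = 0.0116). Gstm2, a glutathione S-transferase, had 319 and 305 CPM in Tet1-KO cells, against 133 and 108 CPM in Tet1-WT cells (1.37, SE 0.18, adjusted p = 0.00619). Its close paralog Gstm6 had 49.4 and 52.2 CPM against 15.4 and 21.5 CPM and did not pass (1.46, SE 0.34, adjusted p = 0.123); reads of such close copies can be counted for one another. Slc29a1, a nucleoside transporter, had 58.6 and 46.3 CPM in Tet1-KO cells, against 19.8 and 15.1 CPM in Tet1-WT cells (1.59, SE 0.27, adjusted p = 0.0416). Galnt7, an enzyme of mucin-type sugar chains on proteins, had 108 and 73.8 CPM in Tet1-KO cells, against 30.1 and 18.1 CPM in Tet1-WT cells (1.92, SE 0.34, adjusted p = 0.0416).

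The other 6 rises among genes at 5 CPM or more were Gna14, Afap1, Pls3, Cux1, Klhl13 and Lrrc34. Gna14, a Gq-class G protein subunit, had 35.7 and 18.6 CPM in Tet1-KO cells, against 6.18 and 3.28 CPM in Tet1-WT cells, the largest called change among genes at 5 CPM or more (2.54, SE 0.33, adjusted p = 0.00619). Afap1, an actin-filament-associated adaptor, had 79.8 and 70.1 CPM in Tet1-KO cells, against 23.4 and 25.6 CPM in Tet1-WT cells (1.61, SE 0.21, adjusted p = 0.00619). Pls3, the actin-bundling plastin, had 217 and 136 CPM in Tet1-KO cells, against 58.2 and 70.2 CPM in Tet1-WT cells (1.46, SE 0.2, adjusted p = 0.00703). Cux1, a homeodomain transcription factor, had 17 and 14.4 CPM in Tet1-KO cells, against 3.33 and 4.47 CPM in Tet1-WT cells (2.0, SE 0.34, adjusted p = 0.0416). Klhl13, an adaptor of a Cullin 3 ubiquitin ligase, had 88.3 and 72.6 CPM in Tet1-KO cells, against 39.2 and 41.8 CPM in Tet1-WT cells (0.99, SE 0.17, adjusted p = 0.0416). Lrrc34, a leucine-rich repeat protein known from pluripotent stem cells, had 76.7 and 54.5 CPM in Tet1-KO cells, against 23.5 and 23.0 CPM in Tet1-WT cells (1.5, SE 0.26, adjusted p = 0.0416). In all 10 of these genes the lower Tet1-KO library lay above the higher Tet1-WT library.

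Of the 4 genes that fell, 3 were well measured. Rsrp1, an arginine- and serine-rich protein, had 36.1 and 30.2 CPM in Tet1-KO cells, against 79.1 and 97.5 CPM in Tet1-WT cells (−1.42, SE 0.25, adjusted p = 0.0416). Tmsb10, a thymosin that binds actin monomers, had 48.1 and 49.2 CPM in Tet1-KO cells, against 98.3 and 97.7 CPM in Tet1-WT cells (−1.01, SE 0.18, adjusted p = 0.0416). The gene ENSMUSG00000091944, for which no symbol was available, had 31.4 and 33.8 CPM in Tet1-KO cells, against 86.2 and 136 CPM in Tet1-WT cells (−1.77, SE 0.31, adjusted p = 0.0425). The groups were separate in each.

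**Figure D1:**
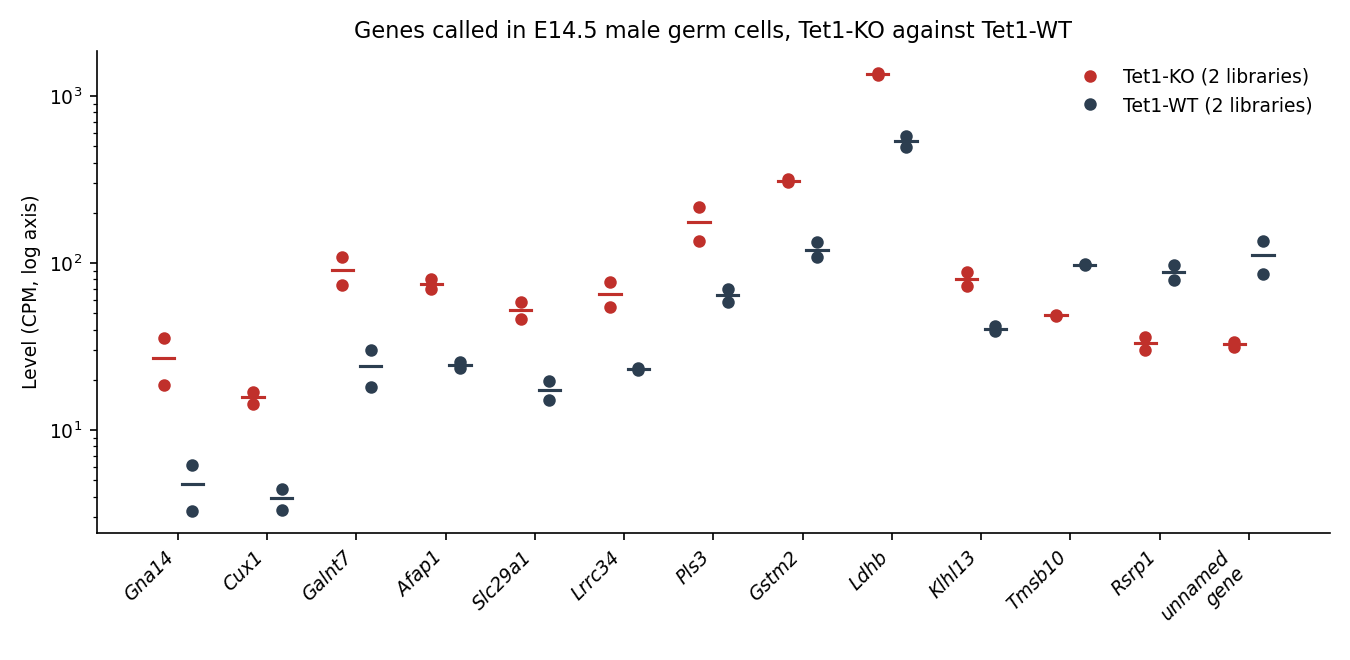
Level in CPM (log axis) of the 13 called genes at 5 CPM or more, with 1 point per library and a bar at the group mean, E14.5 male Tet1-KO to the left of Tet1-WT. The 10 genes on the left were higher and the 3 on the right lower in Tet1-KO cells, and no gene's groups overlap.

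The other 5 called genes were below 5 CPM in both groups. Prom1, the membrane glycoprotein prominin, had no count in Tet1-KO cells against 2.44 and 2.12 CPM in Tet1-WT cells, at least 12.1-fold lower when 3 counts are allowed in each empty library (adjusted p = 0.0027). Sema3a, a secreted guidance cue for axons, had 1.35 and 2.0 CPM in Tet1-KO cells and no count in Tet1-WT cells, at least 11.3-fold higher (adjusted p = 0.0416). Rnf128, a ubiquitin ligase, had 1.23 and 2.25 CPM in Tet1-KO cells and no count in Tet1-WT cells, at least 11.6-fold higher (adjusted p = 0.0377). These bounds cover counting error only, as amplified reads are not independent molecules. Scd1, a stearoyl-CoA desaturase, was counted 83 times in the Tet1-KO and 2 times in the Tet1-WT libraries, a ratio of 54.3 (95% exact interval for counting error 14.6 to 456; adjusted p = 0.00917). Gcm1, a transcription factor known from the placenta, was counted 50 and 4 times, a ratio of 16.4 (6.01 to 62.4; adjusted p = 0.0468). Of all 18 called genes 3 were X-linked (Pls3, Klhl13 and Rnf128), and 725 X-linked genes made up 4.13% of those tested.

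The germline genes that depend on DNA demethylation lay mostly lower in Tet1-KO cells, but none was called by edgeR. Of 33 methylation-sensitive germline genes tested, 19 had both Tet1-KO libraries below both Tet1-WT libraries (57.6%, against 18.7% of all genes) and 1 had both above (3.03%, against 24.9%). The list's median log2 change was −0.82, against 0.02 over all genes. At an unadjusted p under 0.05, 12 were lower and 0 higher. DESeq2 called 6 of the 33 and voom 8, all lower. Over all 17567 genes they called 368 and 112, in either direction, and these totals also stand behind the counts of the lists below. Summed over the list the level was 7569 and 8153 CPM in Tet1-KO and 9684 and 11322 CPM in Tet1-WT cells. The size rested on 1 library: without Tet1-WT library 2 the median was −0.36, and 24 of the 33 genes were higher in that library than in Tet1-WT library 1.

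Mael and Sycp1 are shown as sequences because they are 2 of the genes of this list with low levels in Tet1-KO cells, beside Ldhb, which rose. The lines give the RefSeq promoter windows of build GRCm38.p6, 250 bases before to 50 after the start of the gene and read 5′ to 3′ on its own strand, with every CG in capitals. Mael lies on the minus strand at chr1:166238695-166238994, Sycp1 on the minus strand at chr3:102936051-102936350 and Ldhb on the minus strand at chr6:142507908-142508207.
Mael: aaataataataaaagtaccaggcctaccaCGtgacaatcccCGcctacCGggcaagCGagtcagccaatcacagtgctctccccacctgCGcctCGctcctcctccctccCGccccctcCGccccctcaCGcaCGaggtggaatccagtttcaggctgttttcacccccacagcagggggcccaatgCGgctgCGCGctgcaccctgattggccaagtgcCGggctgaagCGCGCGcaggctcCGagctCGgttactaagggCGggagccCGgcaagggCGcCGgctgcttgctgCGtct
Sycp1: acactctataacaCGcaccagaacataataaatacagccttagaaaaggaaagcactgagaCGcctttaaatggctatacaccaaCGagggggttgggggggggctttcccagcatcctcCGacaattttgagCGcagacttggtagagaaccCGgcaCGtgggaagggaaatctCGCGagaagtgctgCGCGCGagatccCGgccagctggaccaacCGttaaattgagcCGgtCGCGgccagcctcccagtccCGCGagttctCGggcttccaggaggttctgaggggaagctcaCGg
Ldhb: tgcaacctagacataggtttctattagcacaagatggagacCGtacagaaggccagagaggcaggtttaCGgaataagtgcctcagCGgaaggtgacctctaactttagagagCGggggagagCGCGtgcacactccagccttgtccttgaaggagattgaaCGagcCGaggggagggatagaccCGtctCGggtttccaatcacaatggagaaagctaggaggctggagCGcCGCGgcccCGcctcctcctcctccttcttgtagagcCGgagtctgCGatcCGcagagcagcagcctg
The Mael window holds 24 CG pairs, and 6563 of the 32851 RefSeq windows hold as many or more. The Sycp1 window holds 21 (8148 windows) and the Ldhb window 17 (10320 windows). Over the 29 list members with a window the median was 20 CG pairs, over the 13 genes called higher that have one it was 15, and over all windows it was 7. The letters CACGTG, the core of the E-box, read the same on both strands. They were searched for because they hold a CG: they stand 1 time in the Mael and 1 time in the Sycp1 window and not in the Ldhb window. They occur in 13 of the 29 list windows (44.8%), in 1 of the 13 windows of genes called higher and in 7.15% of all windows. The list was made of genes known to have methylated CpG-rich promoters, so its CG content is no finding. The share with CACGTG, which holds a CG, was not set against windows equally rich in CG, so it is no finding either.

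Several members of this list lay lower in both Tet1-KO libraries, among them Mael, Sycp1, Sycp3 and Hormad1. Mael, a piRNA pathway protein that silences transposons, had 67.9 and 80.9 CPM in Tet1-KO cells, against 286 and 530 CPM in Tet1-WT cells (−2.45, SE 0.64, adjusted p = 0.158). Sycp1, the central filament of the synaptonemal complex, had 72.4 and 96.6 CPM in Tet1-KO cells, against 225 and 256 CPM in Tet1-WT cells (−1.51, SE 0.35, adjusted p = 0.123). Sycp3, its lateral element, had 74.7 and 72.4 CPM in Tet1-KO cells, against 108 and 156 CPM in Tet1-WT cells (−0.84, SE 0.23, adjusted p = 0.185). In these 3 genes the highest Tet1-KO library lay below the lowest Tet1-WT library. Hormad1, an axis protein of meiotic chromosomes, had 59.2 and 74.1 CPM against 143 and 129 CPM (−1.03, SE 0.4, adjusted p = 0.369). Other members were not separated: Smc1b, a meiotic cohesin subunit, had 317 and 363 CPM in Tet1-KO and 354 and 327 CPM in Tet1-WT cells. Fkbp6, a piRNA pathway co-chaperone, had 607 and 673 CPM in Tet1-KO and 629 and 837 CPM in Tet1-WT cells.

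Further members with lower levels in both Tet1-KO libraries were Taf7l, Tex101, Brdt, Asz1, Slc25a31, Tuba3a and Dazl. Taf7l, a TFIID subunit of spermatogenic cells, had 8.19 and 8.98 CPM in Tet1-KO cells, against 30.2 and 41.8 CPM in Tet1-WT cells (−2.07, SE 0.5, adjusted p = 0.141). Tex101, a germ cell surface glycoprotein, had 27.7 and 46.1 CPM in Tet1-KO cells, against 90.6 and 219 CPM in Tet1-WT cells (−2.07, SE 0.56, adjusted p = 0.164). Brdt, the bromodomain protein of the testis, had 10.1 and 18.9 CPM against 48.1 and 63.7 CPM (−1.95, SE 0.7, adjusted p = 0.314). Asz1, a germ cell protein of the piRNA machinery, had 186 and 200 CPM against 256 and 453 CPM (−0.88, SE 0.21, adjusted p = 0.125). Slc25a31, the ADP/ATP carrier of male germ cells, had 181 and 206 CPM in Tet1-KO cells, against 316 and 391 CPM in Tet1-WT cells (−0.87, SE 0.37, adjusted p = 0.422). Tuba3a, a testis alpha-tubulin whose near-identical copy Tuba3b can share its reads, had 259 and 232 CPM against 528 and 337 CPM (−0.82, SE 0.26, adjusted p = 0.254). Dazl, the RNA-binding protein that licenses germ cells for sexual differentiation, had 1320 and 1440 CPM in Tet1-KO cells, against 2300 and 2000 CPM in Tet1-WT cells (−0.64, SE 0.4, adjusted p = 0.631). The groups were separate in every gene of this paragraph.

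**Figure D2:**
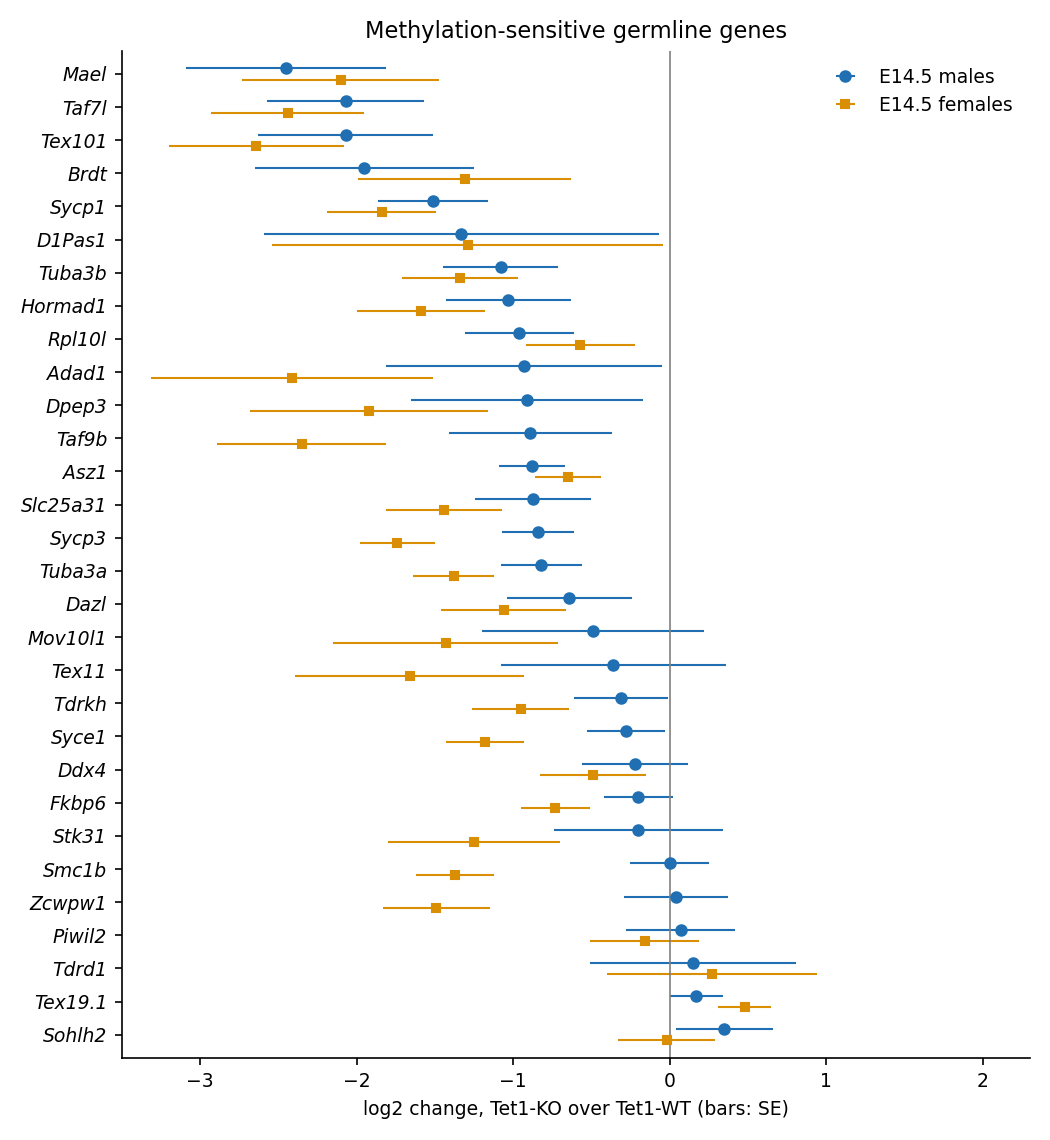
Fitted log2 change, Tet1-KO over Tet1-WT, with its standard error for the 30 methylation-sensitive germline genes at 5 CPM or more in an E14.5 male group, males as circles above females as squares. Most points lie left of 0 in both sexes, as the medians over the list of −0.82 in males and −1.37 in females also show.

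The piRNA pathway, which makes small RNAs against transposons, was described next. Of 28 genes tested 16 had both Tet1-KO libraries below both Tet1-WT libraries (18.7% of all genes) and 1 had both above (24.9%), the median log2 change was −0.5, and 7 were lower and 0 higher at an unadjusted p under 0.05. edgeR called 0 of them, DESeq2 4 and voom 8, all lower. The list shares 9 members with the methylation-sensitive list, and of its other 19 members 12 lay below and 0 above without overlap, with a median of −0.78. Tex15, which binds the nuclear Piwi protein, had 73.1 and 77.0 CPM in Tet1-KO cells, against 136 and 323 CPM in Tet1-WT cells (−1.61, SE 0.37, adjusted p = 0.123). Tdrd9, a helicase of the pathway, had 13.7 and 13.5 CPM against 45.2 and 119 CPM (−2.59, SE 0.76, adjusted p = 0.209). Gtsf1, a zinc-finger partner of Piwi proteins, had 17.5 and 28.1 CPM in Tet1-KO cells, against 62.5 and 161 CPM in Tet1-WT cells (−2.29, SE 0.64, adjusted p = 0.19). Piwil4, the nuclear Piwi protein of gonocytes, had 28.1 and 41.8 CPM against 60.3 and 159 CPM (−1.65, SE 0.58, adjusted p = 0.312). Rnf17, a Tudor-domain protein, had 391 and 428 CPM against 493 and 570 CPM (−0.37, SE 0.19, adjusted p = 0.537). Piwil2, the cytoplasmic Piwi protein of fetal germ cells, was not separated, with 428 and 417 CPM in Tet1-KO and 295 and 511 CPM in Tet1-WT cells. The 2 Tet1-WT libraries were unequal here, as 26 of the 28 genes were higher in library 2. The list's median was −0.23 without that library and −0.77 without library 1.

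Genes of male germ cell differentiation overlap the lists above, with 12 of 22 tested genes shared. Of the 22, 11 had both Tet1-KO libraries below both Tet1-WT libraries (18.7% of all genes) and 0 had both above (24.9%), and the median log2 change was −0.59. At an unadjusted p under 0.05, 4 were lower and 0 higher. edgeR called 0, DESeq2 2 and voom 4, all lower. Of the 10 members in neither of the other lists, 4 lay below and 0 above, with a median of −0.3. Nanos2, which blocks meiosis and drives the male programme, had 43.0 and 63.0 CPM in Tet1-KO and 69.3 and 125 CPM in Tet1-WT cells (−0.87, SE 0.84, adjusted p = 0.814). Dnmt3l, the cofactor of new DNA methylation in gonocytes, had 4.45 and 4.43 CPM in Tet1-KO and 8.26 and 27.0 CPM in Tet1-WT cells (−1.99, SE 1.59, adjusted p = 0.751). The Tet1-WT libraries were far apart for Dnmt3l. Dnmt3a, the enzyme Dnmt3l serves, overlapped, with 180 and 215 CPM in Tet1-KO and 114 and 268 CPM in Tet1-WT cells. Library 2 was the higher Tet1-WT library for 19 of the 22 genes, and the median was −0.2 without it and −0.81 without library 1.

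Genes of meiotic prophase were on both sides in males. Of 36 tested 17 were below and 5 above without overlap (18.7% and 24.9% of all genes), 6 of the 36 being members of the methylation-sensitive list, the median log2 change was −0.42, and 8 were lower and 2 higher at an unadjusted p under 0.05. edgeR called 0, DESeq2 3 and voom 2, all lower. Summed over the list the level was 2102 and 2236 CPM in Tet1-KO and 2605 and 2981 CPM in Tet1-WT cells. Stag3, the cohesin subunit of meiosis, lay the other way, with 373 and 396 CPM in Tet1-KO cells, against 259 and 297 CPM in Tet1-WT cells (0.47, SE 0.19, adjusted p = 0.405). Stra8, which responds to retinoic acid and starts meiosis, was at 1.42 and 2.73 CPM in Tet1-KO and 1.66 and 1.4 CPM in Tet1-WT male cells. In E14.5 female cells it was at 427 and 346 CPM in Tet1-KO and 766 and 575 CPM in Tet1-WT.

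Pluripotency genes did not share 1 direction. Of 25 tested 12 were above and 3 below without overlap (24.9% and 18.7% of all genes), and the median log2 change was 0.32. At an unadjusted p under 0.05, 3 were higher and 4 lower. None was called by edgeR, DESeq2 or voom. Nanog, a core pluripotency factor, had 154 and 123 CPM in Tet1-KO cells, against 103 and 78.8 CPM in Tet1-WT cells (0.61, SE 0.37, adjusted p = 0.619). Zfp42, the zinc-finger protein Rex1, had 256 and 260 CPM against 192 and 135 CPM (0.66, SE 0.22, adjusted p = 0.281). Sox2 had 32.4 and 31.9 CPM in Tet1-KO and 26.3 and 25.4 CPM in Tet1-WT cells (0.32, SE 0.29, adjusted p = 0.795), and Pou5f1 overlapped, with 210 and 243 CPM in Tet1-KO and 202 and 213 CPM in Tet1-WT cells. Dppa4, a chromatin protein of pluripotent cells, lay lower, with 522 and 628 CPM in Tet1-KO cells, against 712 and 1110 CPM in Tet1-WT cells (−0.66, SE 0.25, adjusted p = 0.34). Lin28a, the let-7 blocker, had 36.3 and 41.5 CPM against 77.6 and 63.3 CPM (−0.86, SE 0.28, adjusted p = 0.265). Dppa5a, an RNA-binding protein of pluripotent cells, overlapped, with 1100 and 961 CPM in Tet1-KO and 1040 and 771 CPM in Tet1-WT cells.

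Genes of early primordial germ cells were not called by edgeR either. Of 14 tested 6 were above and 2 below without overlap (24.9% and 18.7% of all genes), 3 were higher and 0 lower at an unadjusted p under 0.05, and the median was 0.3. DESeq2 called Kit and voom none. Kit, the stem cell factor receptor, had 716 and 466 CPM in Tet1-KO cells, against 296 and 139 CPM in Tet1-WT cells (1.44, SE 0.39, adjusted p = 0.172). Prdm1, a repressor that sets germ cell fate, had 115 and 99.1 CPM against 78.7 and 40.2 CPM (0.85, SE 0.35, adjusted p = 0.395). Prdm14, its partner, had 104 and 77.3 CPM in Tet1-KO cells, against 59.3 and 40.2 CPM in Tet1-WT cells (0.87, SE 0.38, adjusted p = 0.435). Nanos3, which protects migrating germ cells, was not separated, with 53.4 and 76.3 CPM in Tet1-KO and 70.5 and 103 CPM in Tet1-WT cells (−0.42, SE 0.31, adjusted p = 0.715). Ifitm1, an interferon-induced surface protein of early germ cells whose family members can share reads, had 590 and 557 CPM in Tet1-KO and 670 and 628 CPM in Tet1-WT cells.

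Nodal signalling, which is active for a short time in germ cells of the early testis, had 17 genes tested, 8 above and 1 below without overlap (24.9% and 18.7% of all genes), and a median of 0.51. At an unadjusted p under 0.05, 2 were higher and 0 lower, and edgeR, DESeq2 and voom called 0. Lefty1, an inhibitor and target of Nodal, had 279 and 244 CPM in Tet1-KO and 213 and 110 CPM in Tet1-WT cells (0.7, SE 0.7, adjusted p = 0.821). Lefty2 had 168 and 127 CPM in Tet1-KO and 141 and 66.0 CPM in Tet1-WT cells, and the ligand Nodal 41.5 and 30.5 CPM and 36.1 and 21.1 CPM, so both overlapped. Tdgf1 (Cripto), the co-receptor, had 101 and 62.2 CPM in Tet1-KO and 57.6 and 30.7 CPM in Tet1-WT cells (0.89, SE 0.56, adjusted p = 0.633). Foxh1, the transcription factor of the pathway, had 59.0 and 50.7 CPM in Tet1-KO cells, against 34.2 and 19.6 CPM in Tet1-WT cells (1.03, SE 0.34, adjusted p = 0.273). The median of the Nodal list was 0.2 without Tet1-WT library 2 and 1.22 without library 1. Id3, an inhibitor of helix-loop-helix factors, is not in the Nodal list but in that of oocyte and female germ cell genes, described below. It overlapped, with 122 and 93.2 CPM in Tet1-KO and 96.7 and 63.4 CPM in Tet1-WT cells.

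The DNA methylation machinery had a median of 0.02, the same as all genes, over 21 genes, with 6 above and 4 below without overlap (24.9% and 18.7% of all genes), 2 higher and 1 lower at an unadjusted p under 0.05 and no call by edgeR, DESeq2 or voom. Dnmt1, the maintenance methyltransferase, had 553 and 474 CPM in Tet1-KO cells, against 316 and 240 CPM in Tet1-WT cells (0.89, SE 0.27, adjusted p = 0.216). Its partner Uhrf1 overlapped, with 88.9 and 92.3 CPM in Tet1-KO and 117 and 89.7 CPM in Tet1-WT cells. Tet2, the other Tet enzyme well measured here, had 35.2 and 46.9 CPM in Tet1-KO cells, against 23.4 and 32.5 CPM in Tet1-WT cells (0.55, SE 0.35, adjusted p = 0.639), and Tet3 was at 2.71 and 2.55 CPM and at 0.891 and 3.0 CPM. The repressors of germline genes, PRC1.6 and the H3K9 methylation factors, had a median of −0.06 over 18 genes, with 6 above and 7 below without overlap. edgeR called 0 of them, with 5 higher and 2 lower at an unadjusted p under 0.05, and DESeq2 called 1 in each direction. Hells, a chromatin remodeller needed for DNA methylation, overlapped, with 532 and 486 CPM in Tet1-KO and 588 and 417 CPM in Tet1-WT cells. Of the repressors, the ubiquitin ligase Rnf2 had 395 and 377 CPM in Tet1-KO and 318 and 266 CPM in Tet1-WT cells. Setdb1, an H3K9 methyltransferase, had 294 and 293 CPM in Tet1-KO and 203 and 285 CPM in Tet1-WT cells, close to Tet1-WT library 2.

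Imprinted genes, expressed from 1 parental copy, had a median of 0.02 over 38 genes, with 7 above and 3 below without overlap (24.9% and 18.7% of all genes). edgeR called 0, with 4 higher and 2 lower at an unadjusted p under 0.05, DESeq2 called 1 higher and 1 lower, and voom 1 higher. Peg12, a paternally expressed GSK-3-binding protein, had 80.6 and 95.5 CPM in Tet1-KO cells, against 20.4 and 23.8 CPM in Tet1-WT cells (1.99, SE 0.38, adjusted p = 0.0654). Grb10, an adaptor that restrains growth, had 15.0 and 16.5 CPM against 3.98 and 6.47 CPM (1.58, SE 0.53, adjusted p = 0.279). The growth inhibitor Cdkn1c was not separated, averaging 20.1 ± 0.159 CPM in Tet1-KO and 20.1 ± 4.64 CPM in Tet1-WT cells (SD, n = 2 each). The maternally expressed RNA H19 had 5.87 and 5.52 CPM in Tet1-KO cells, against 7.55 and 10.8 CPM in Tet1-WT cells (−0.7, SE 0.33, adjusted p = 0.492). Peg3, a paternally expressed zinc-finger protein, had 191 and 192 CPM in Tet1-KO and 214 and 156 CPM in Tet1-WT cells, and Copg2, a coat protein subunit, 180 and 189 CPM and 174 and 223 CPM, so both overlapped.

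Genes of division and arrest differed little. The mitotic cell cycle list had a median of 0.1 over 30 genes, 8 above and 4 below without overlap (24.9% and 18.7% of all genes) and 3 in each direction at an unadjusted p under 0.05. The median turned to −0.32 without Tet1-WT library 2, and only 4 of the 30 genes were higher in that library than in library 1. The G1 arrest list had a median of 0.05 over 22 genes, 4 above and 2 below, with 2 higher and 1 lower at an unadjusted p under 0.05, and neither list had a call by edgeR, DESeq2 or voom. Apoptosis and p53 target genes had a median of 0.32 over 21 genes, 8 above and 2 below, with 2 higher and 0 lower at an unadjusted p under 0.05, no call by edgeR and 1 by DESeq2. Bcl2l11 (Bim), a trigger of apoptosis, had 10.7 and 6.49 CPM in Tet1-KO cells, against 1.72 and 1.2 CPM in Tet1-WT cells (2.56, SE 0.49, adjusted p = 0.0654). Oocyte and female germ cell genes had a median of 0.37 over 19 genes, 5 above and 1 below, and stress genes a median of −0.25 over 21 genes, 2 above and 6 below. The stress median turned to 0.22 without Tet1-WT library 2, and 16 of the 21 genes were higher in that library than in library 1. edgeR, DESeq2 and voom called 0 in the oocyte and stress lists. At an unadjusted p under 0.05 by edgeR there was 1 oocyte gene in each direction and 0 stress genes. The highest members of these lists overlapped between the genotypes or nearly so. Top2a, the topoisomerase of dividing cells, had 916 and 680 CPM in Tet1-KO and 796 and 473 CPM in Tet1-WT cells, and Ccnb1, a mitotic cyclin, 836 and 693 CPM and 1030 and 629 CPM. Trp53 (p53) had 485 and 373 CPM in Tet1-KO and 406 and 228 CPM in Tet1-WT cells, and its target Pmaip1 342 and 415 CPM and 370 and 392 CPM. Sohlh2, a helix-loop-helix factor of germ cells, had 263 and 228 CPM in Tet1-KO and 249 and 137 CPM in Tet1-WT cells. The chaperones Hspa8 and Hsp90aa1 had 6120 and 5480 CPM and 2760 and 2830 CPM in Tet1-KO cells, against 4360 and 6080 CPM and 3330 and 2860 CPM in Tet1-WT cells.

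Transcripts of other cell types were present at low levels in the sorted cells and their sums were higher in both Tet1-KO than in both Tet1-WT libraries for 5 of 7 cell types. In bulk RNA, more cells of a type and more RNA per cell cannot be told apart. The sum over 23 Sertoli cell genes was 313.1 and 250.3 CPM in Tet1-KO and 174.5 and 158.1 CPM in Tet1-WT cells, with a median log2 change of 0.84 over the 20 tested and 12 of them above and 0 below without overlap (24.9% and 18.7% of all genes). Without Dmrt1, the highest member and a factor that germ cells express too, it was 242.9 and 194.5 CPM and 100.8 and 101.8 CPM. That sum still holds Gstm6, which can share reads with the called Gstm2 and whose levels are given above. edgeR called 0 of the Sertoli genes, with 2 higher at an unadjusted p under 0.05, and DESeq2 and voom called 1 higher each. Of the defining Sertoli genes, Amh was at 4.84 and 2.73 CPM in Tet1-KO and 1.31 and 1.84 CPM in Tet1-WT cells, Sox9 at 12.3 and 7.1 CPM and at 3.92 and 3.6 CPM, and Sry was at 0 in all 4 libraries. Cst9, another Sertoli gene, had 70.6 and 57.5 CPM in Tet1-KO and 34.5 and 25.7 CPM in Tet1-WT cells (1.09, SE 0.64, adjusted p = 0.603). The sum of mesenchyme genes was 240.3 and 225.3 CPM in Tet1-KO and 155.1 and 148.2 CPM in Tet1-WT cells, that of endothelial and blood genes 232.0 and 164.8 CPM and 159.4 and 92.5 CPM, and that of epithelial genes 425.7 and 460.1 CPM and 278.2 and 226.3 CPM. Single members carried part of these sums. The medians were −0.04 for mesenchyme, 1.27 for endothelial and blood and 0.6 for epithelial genes. Without the matrix protein Sparc (132 and 119 CPM in Tet1-KO, 65.2 and 51.5 CPM in Tet1-WT) the mesenchyme sum was 108.7 and 105.8 CPM in Tet1-KO and 89.9 and 96.7 CPM in Tet1-WT cells. Without the adhesion protein Pecam1 (208 and 149 CPM, 149 and 74.4 CPM) the endothelial and blood sum was 23.7 and 15.7 CPM and 10.6 and 18.1 CPM and overlapped. Without Cdh1 the epithelial sum was 99.9 and 80.3 CPM and 124.3 and 75.2 CPM and overlapped as well. Cdh1, the epithelial cadherin that germ cells also carry, had 326 and 380 CPM in Tet1-KO cells, against 154 and 151 CPM in Tet1-WT cells (1.21, SE 0.47, adjusted p = 0.363). Flt1, a receptor of vessels, was at 3.1 and 3.76 CPM in Tet1-KO and 5.64 and 6.27 CPM in Tet1-WT cells, and Ptprc and Esam were at 0 in all 4 libraries. Without overlap, 6 of 20 mesenchyme genes lay above and 0 below, 6 of 16 endothelial and blood genes above and 1 below, and 4 of 11 epithelial genes above and 0 below. edgeR called 0 of these, with 3, 3 and 2 genes higher at an unadjusted p under 0.05, and DESeq2 called 3 and voom 1 of the mesenchyme genes higher. The sums of Leydig cell genes were 95.7 and 102.9 CPM in Tet1-KO and 82.1 and 84.3 CPM in Tet1-WT cells, and the sums overlapped for ovarian supporting cells (48.0 and 57.4 CPM, 39.2 and 53 CPM) and erythroid genes (38.6 and 28.5 CPM, 9.45 and 67.7 CPM). Most of the Leydig sum was Scarb1, and without it 30.6 and 35.7 CPM against 27.5 and 26.4 CPM remained. Most of the ovarian sum was Cdkn1b, also a member of the male germ cell and G1 arrest lists. Without it 9.68 and 8.32 CPM in Tet1-KO and 8.02 and 10.7 CPM in Tet1-WT cells remained. The part of these transcripts in the changes above was not tested.

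**Figure D3:**
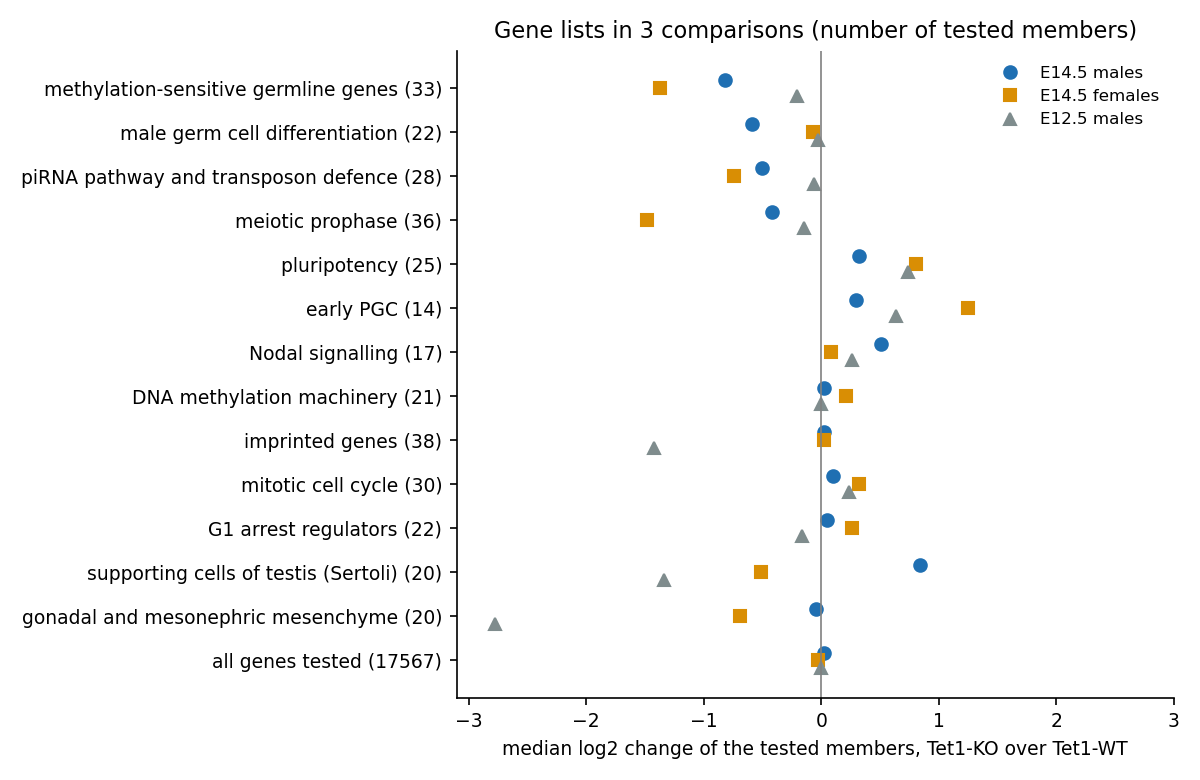
Median log2 change, Tet1-KO over Tet1-WT, of each gene list in E14.5 males, E14.5 females and E12.5 males, with 0 marked. In E14.5 males the germline lists lie left of 0 (−0.82 for methylation-sensitive genes, −0.42 for meiotic prophase) and Sertoli genes lie at 0.84.

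Male and female germ cells of the same stage were next compared in their response to the loss of Tet1. The test of the difference between the effects, which rests on no shared library, called 251 genes (1.43%), with 167 where the change was the higher in males (0.951%) and 84 where it was the lower (0.478%). Leaving out 1 library gave counts between 15 (without female Tet1-WT library 1) and 329 (without female Tet1-KO library a). Of the 18 genes called in males 5 were called in females in the same direction. Ldhb had 433 and 541 CPM in female Tet1-KO against 169 and 231 CPM in female Tet1-WT cells, Gna14 54.9 and 64.2 CPM against 11.9 and 14.3 CPM, Pls3 135 and 162 CPM against 65.1 and 78.0 CPM and Klhl13 109 and 127 CPM against 61.3 and 65.4 CPM. ENSMUSG00000091944 was lower in both sexes, with 17.8 and 13.3 CPM in female Tet1-KO against 50.7 and 65.7 CPM in female Tet1-WT cells. The effect differed between the sexes for 6 of the 18: Cux1, Afap1, Rsrp1, Scd1, Rnf128 and Prom1. The 18 were picked by the male libraries that also enter this test. A share above the 1.43% of all genes can follow from that choice. Cux1 had 34.4 and 46.2 CPM in female Tet1-KO and 75.5 and 69.5 CPM in female Tet1-WT cells, the other way from males (difference of log2 changes, male minus female, 2.85). Afap1 had 48.1 and 61.0 CPM in female Tet1-KO and 46.2 and 40.6 CPM in female Tet1-WT cells (difference 1.28), and Rsrp1 54.5 and 70.2 CPM and 49.6 and 37.1 CPM (difference −1.94). Prom1, without a count in male Tet1-KO cells, had 41.1 and 39.4 CPM in female Tet1-KO and 30.8 and 17.5 CPM in female Tet1-WT cells.

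The response of meiotic genes was set against the same list in females. Their summed level was 7886 and 5896 CPM in female Tet1-KO and 20033 and 16345 CPM in female Tet1-WT cells, 17 of the 36 were called lower in females (3.29% of all genes), and the median log2 change was −1.48 there. The difference was called for 3 of the 36 by edgeR, 7 by DESeq2 and 9 by voom, all higher in males. Over all 17567 genes the same tests called 251, 1093 and 555, in either direction. Stag3 had 536 and 610 CPM in female Tet1-KO against 993 and 978 CPM in female Tet1-WT cells (difference 1.25, adjusted p = 0.0393). For the methylation-sensitive germline genes the median was −1.37 in females, with 12 of 33 called lower and 28 below without overlap (29.3% of all genes), but the difference between the sexes was called for 0 by edgeR, 2 by DESeq2 and 5 by voom, with 4 at an unadjusted p under 0.05 by edgeR, all higher in males (9.71% of all genes). Mael had 143 and 95.9 CPM in female Tet1-KO and 576 and 447 CPM in female Tet1-WT cells, and the sexes differed by −0.36 (adjusted p = 0.956). Sycp1 had 352 and 227 CPM in female Tet1-KO and 1130 and 935 CPM in female Tet1-WT cells, and the sexes differed by 0.32 (adjusted p = 0.863). The sign of both differences turned when 1 library was left out (0.13 for Mael without male Tet1-WT library 2, −0.04 for Sycp1 without female Tet1-KO library b). A p above the threshold does not show that the sexes responded alike.

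Pluripotency and early germ cell genes differed in the other direction. In females 11 of 25 pluripotency genes and 8 of 14 early germ cell genes were called higher in Tet1-KO cells (3.36% of all genes), with medians of 0.81 and 1.25. The difference was called for 3 genes of each list by edgeR, all lower in males (0.478% of all genes). DESeq2 called 10 pluripotency and 5 early germ cell genes and voom 8 and 5, again all lower in males. Over all 17567 genes DESeq2 called 1093 and voom 555, in either direction. Nanos3 had 14 and 16.6 CPM in female Tet1-KO against 2.97 and 6.36 CPM in female Tet1-WT cells (difference −2.17, adjusted p = 0.0359). Tfap2c, a transcription factor of early germ cells, had 19.7 and 10.1 CPM in male Tet1-KO and 17 and 7.43 CPM in male Tet1-WT cells, beside 46.5 and 68.6 CPM in female Tet1-KO and 6.8 and 11.6 CPM in female Tet1-WT cells (difference −2.38). Gdf3, a growth factor of pluripotent cells, had 88.6 and 79.3 CPM in male Tet1-KO and 76.9 and 58.9 CPM in male Tet1-WT cells, beside 51.0 and 69.9 CPM and 7.3 and 17.1 CPM in females (difference −2.03). Dppa2, the partner of Dppa4, had 49.3 and 57.8 CPM in male Tet1-KO and 75.0 and 57.5 CPM in male Tet1-WT cells, beside 37.8 and 51.6 CPM and 9.97 and 15.9 CPM in females (difference −2.11). In each of these genes the lowest of the 4 group means was that of female Tet1-WT cells.

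**Figure D4:**
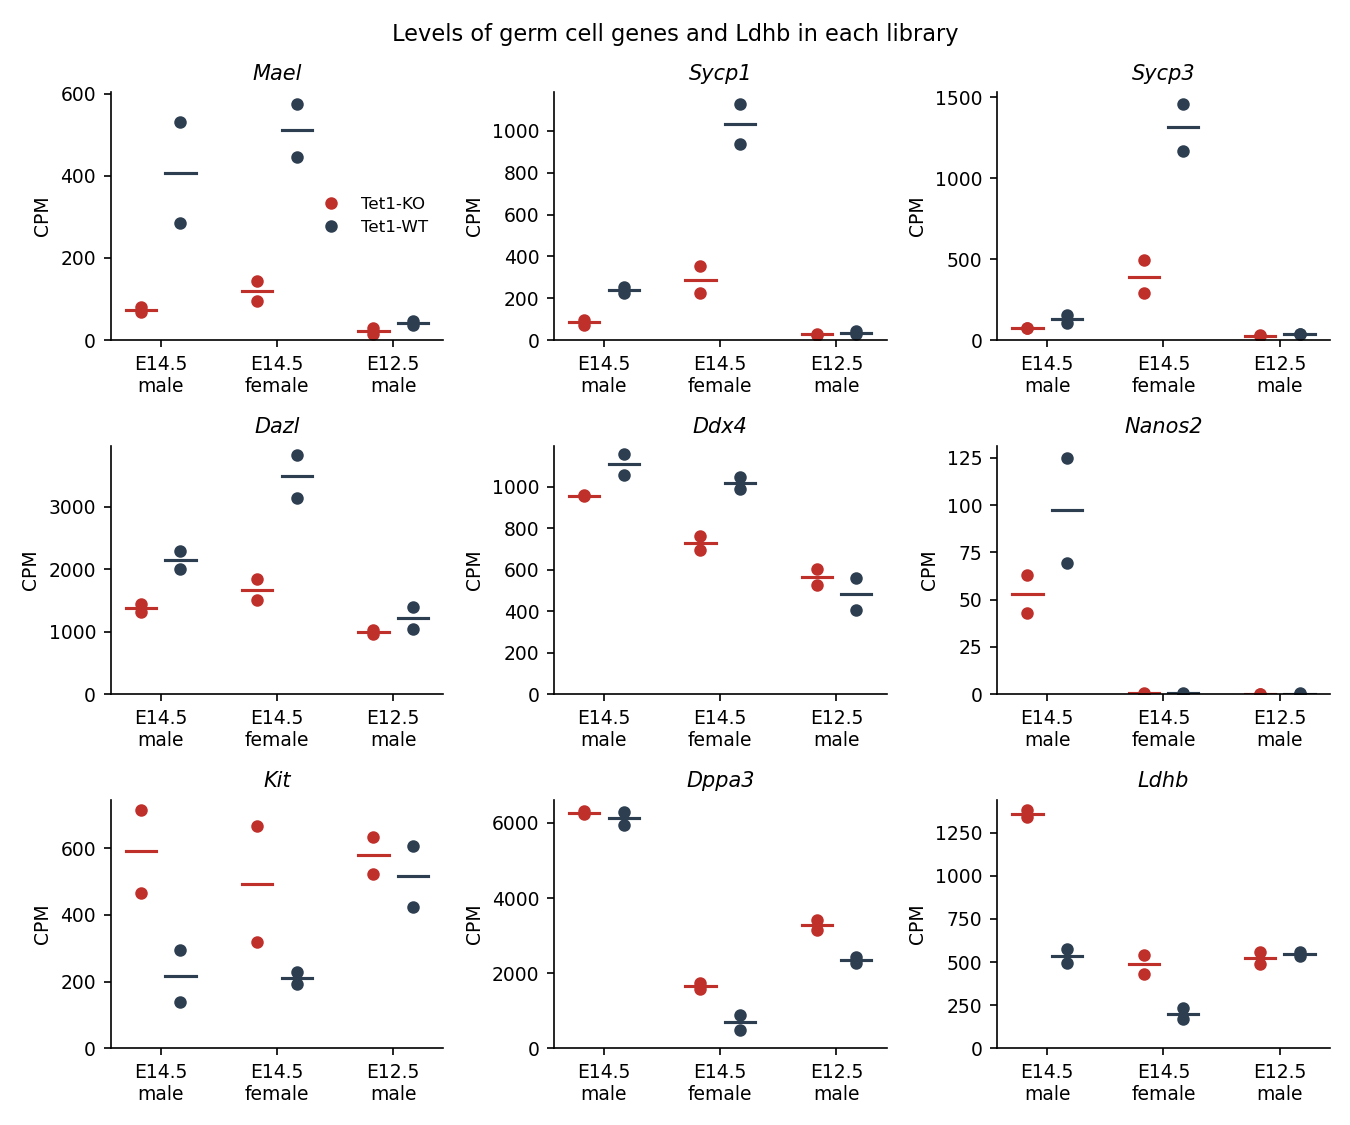
Level in CPM (linear axis) of 9 genes in the 4 libraries each of E14.5 males, E14.5 females and E12.5 males. Each library is 1 point, Tet1-KO lies to the left of Tet1-WT and bars mark group means. Mael and Sycp1 lie lower in Tet1-KO cells of both sexes at E14.5, and Kit lies higher in Tet1-KO males (716 and 466 CPM, against 296 and 139 CPM).

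Genes called in females were followed into males. The 590 genes called higher in female Tet1-KO cells had a median log2 change of 0.27 in males and 68.6% of them were above 0, against 51.3% of all genes; 4 were called higher in males, and the difference between the sexes was called for 75. The 578 genes called lower in females had a median of 0.07 in males. Of them 42.9% were below 0 in males, against 45.4% of all genes. In males 1 was called lower, and the difference was called for 130. Over all genes 0.0797% were called higher and 0.0228% lower in males, and the difference was called for 1.43%. Both sets were picked by the female libraries that also enter the difference test. The 75 and 130 can follow from that choice and are no separate evidence that the sexes differ.

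**Figure D5:**
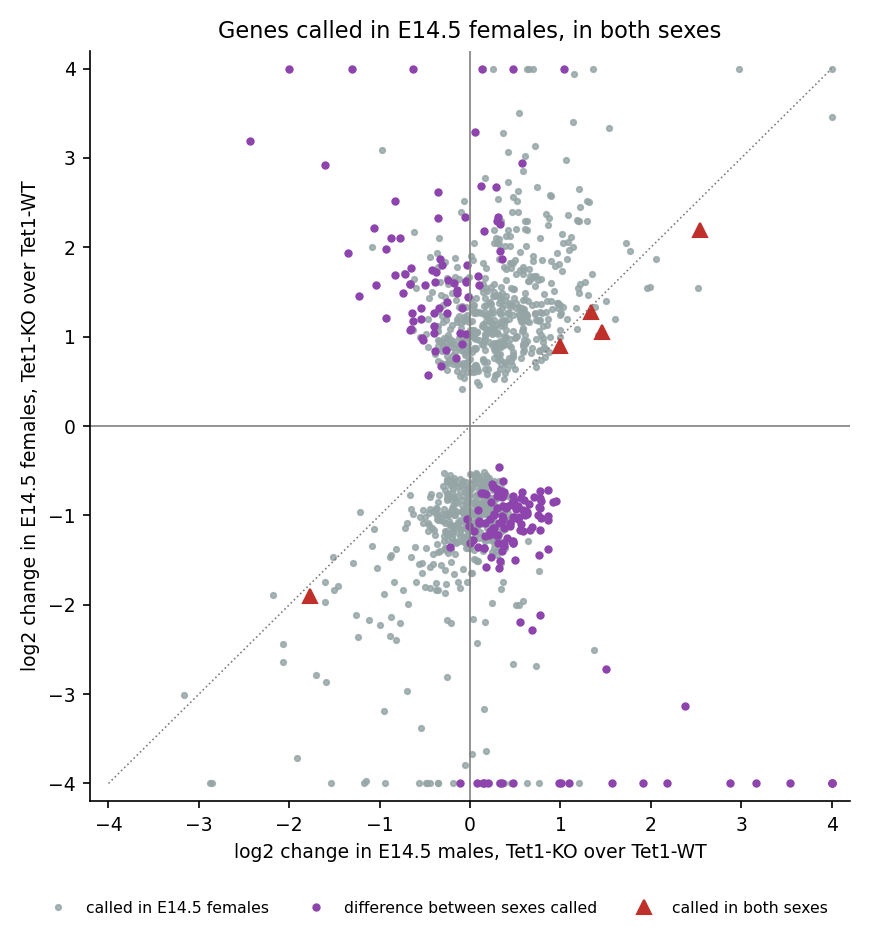
Log2 change, Tet1-KO over Tet1-WT, in E14.5 males against that in E14.5 females for the 1168 genes called in females, with the 205 genes whose difference between the sexes was called and the 5 called in both sexes marked. The axes end at 4 in each direction and 56 genes are drawn at that limit. Genes lower in females spread around 0 in males (median 0.07). The genes drawn were picked by the female libraries that also enter the difference test.

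In males the response at E14.5 was then set against that at E12.5, again with no shared library. The difference was called for 141 genes (0.803%), 129 where the change was the higher at E14.5 (0.734%) and 12 where it was the lower (0.0683%). Transcripts of gonadal and mesonephric mesenchyme moved with this comparison: their sum was 629.3 and 474.9 CPM in E12.5 male Tet1-KO and 2574 and 1716 CPM in E12.5 male Tet1-WT cells. The difference was called for 4 of the 20 mesenchyme genes by edgeR, all higher at E14.5, and the part of these transcripts in the 141 genes was not tested. Leaving out 1 library gave counts between 19 (without E12.5 male Tet1-WT library 1) and 136 (without E14.5 male Tet1-WT library 2). Of the 18 genes called at E14.5, 1 was called at E12.5: Lrrc34, with 215 and 220 CPM in E12.5 Tet1-KO against 63.8 and 94.3 CPM in E12.5 Tet1-WT cells. The effect differed between the stages for 9 of the 18: Ldhb, Gstm2, Afap1, Pls3, Cux1, Sema3a, Scd1, Rnf128 and Prom1. The 18 were picked by the E14.5 male libraries that also enter this test. A share above the 0.803% of all genes can follow from that choice. Ldhb had 559 and 490 CPM in E12.5 Tet1-KO and 534 and 559 CPM in E12.5 Tet1-WT cells (difference of log2 changes, E14.5 minus E12.5, 1.4). Gstm2 had 107 and 101 CPM in E12.5 Tet1-KO and 157 and 165 CPM in E12.5 Tet1-WT cells (difference 2.0), and Afap1 115 and 88.3 CPM and 121 and 131 CPM (difference 1.92). In Pls3 the E12.5 levels were 211 and 211 CPM in Tet1-KO and 187 and 195 CPM in Tet1-WT cells (difference 1.31), and in Cux1 they were 20.3 and 30.2 CPM and 45 and 35.8 CPM (difference 2.68).

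The methylation-sensitive germline genes had a median of −0.21 at E12.5, and the difference between the stages was called for 0 of the 33 by edgeR, 2 by DESeq2 and 1 by voom. Mael was at 15.3 and 30.6 CPM in E12.5 Tet1-KO and 38.0 and 47.2 CPM in E12.5 Tet1-WT cells (difference −1.57, adjusted p = 0.428). Sycp1 averaged 28.5 ± 4.3 CPM in E12.5 Tet1-KO and 36.4 ± 9.01 CPM in E12.5 Tet1-WT cells (SD, n = 2 each) (difference −1.16, adjusted p = 0.271). For imprinted genes the stages differed in 3 members by edgeR, 11 by DESeq2 and 6 by voom. Over all 17567 genes the same tests called 141, 956 and 778. The median of the list was −1.42 at E12.5, with 12 of 38 called lower (0.939% of all genes), and the difference was called by edgeR for Grb10, Peg12 and Cd81, with the higher change at E14.5 in each. Grb10 had 22.5 and 14.3 CPM in E12.5 Tet1-KO against 554 and 318 CPM in E12.5 Tet1-WT cells (difference 6.15). Peg12 had 78.1 and 71.8 CPM in E12.5 Tet1-KO and 118 and 107 CPM in E12.5 Tet1-WT cells (difference 2.58). The part of the mesenchyme transcripts in these differences was not tested either. Sparc, of the mesenchyme list, had 260 and 213 CPM in E12.5 Tet1-KO and 476 and 349 CPM in E12.5 Tet1-WT cells, beside 132 and 119 CPM in E14.5 Tet1-KO and 65.2 and 51.5 CPM in E14.5 Tet1-WT cells (difference 1.91). The 165 genes called lower in E12.5 Tet1-KO males had a median log2 change of 0.2 at E14.5, against 0.02 over all genes. Of them 65.5% were above 0 at E14.5, against 51.3% of all genes. At E14.5 edgeR called 0 of them, but it called only 0.102% of all genes there, so the 0 says little about this set.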

How the data were processed

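Read counts per gene were deposited by the authors as 1 table of whole-number counts for the 20 libraries of the Tet1 cross, and the 4 E14.5 male libraries were analysed within it. Per the labels, polyA RNA was copied with the SMARTer Ultra Low kit (15 cycles) and amplified again for 15 cycles before sequencing. Per the submitters' processing notes, Trimmomatic, TopHat2 2.0.2, Bowtie 0.12.8, HTSeq 0.5.3p9 and build mm9 were used. The annotation and the strand setting are not given in the sources used here, so overlapping genes on opposite strands and near-identical copies could share reads. Both Tet1-KO columns of a group carried the same header and are called libraries a and b. Of 37991 genes 32919 received a symbol by Ensembl identifier.

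Counts were analysed with edgeR 4.0.16 in R 4.3.3, and figures were drawn with matplotlib 3.10.9. Genes were filtered with filterByExpr (minimum count 10, minimum total 15), libraries were scaled by TMM, and 10 groups of 2 libraries were fitted together with the robust quasi-likelihood method (default prior count, common biological coefficient of variation 0.46, 10 residual degrees of freedom). P-values were adjusted over all 17567 genes by Benjamini-Hochberg, and genes under 0.05 were called. The standard error (SE) of a log2 change is its size over the square root of F. A difference test subtracts 1 genotype effect from another. CPM are not divided by gene length. A floor of 3 counts per library corresponds to 0.194 and 0.182 CPM in Tet1-KO and 0.178 and 0.12 CPM in Tet1-WT males. Alternatives were DESeq2 1.42.0, limma 3.58.1 voom with quality weights, another scaling, 2 other filters, the libraries of a comparison alone, and each library left out.

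The comparisons, the 25 gene lists (508 of 517 entries matched) and the genes named were chosen with earlier results of these data known. Named were Tet1, up to 10 called rises and 10 falls without overlap at 5 CPM or more, 5 and 5 per difference test, up to 3 called or else the 2 highest members of each list, and a set of known germ cell genes. Highest members of the Leydig, ovarian, erythroid and sex-label lists and some of the epithelial, mesenchymal and mitochondrial ones met the rule but are described only through their lists, and 1 gene that the rule selects in the stage difference is not reported here. Genes named outside this rule, such as the low-count calls and further list members, were picked after their values were seen. The list of 12 mitochondrially encoded genes had a median log2 change of −0.05 and no call.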

Additional observations from a re-analysis of the deposited data

Results flagged for a closer look

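The effect of Tet1-KO differed between the sexes at E14.5 by the test of the difference itself for 251 genes. The largest differences (log2 change in males minus that in females, edgeR) were mostly in genes with a group at or near 0, where the fitted size depends on the prior count and is no bound. Rnf128 (8.43) and Prom1 (−9.02) are described above. Nid1, a basement membrane protein (7.63), had 6.77 and 7.65 CPM in male Tet1-KO and 8.44 and 4.63 CPM in male Tet1-WT cells, beside no count in female Tet1-KO and 1.31 and 1.27 CPM in female Tet1-WT cells, at least 7.76-fold lower in females. Adh1, an alcohol dehydrogenase (7.51), had 8.39 and 6.25 CPM in male Tet1-KO and 4.4 and 2.48 CPM in male Tet1-WT cells, beside no count in female Tet1-KO and 0.755 and 0.424 CPM in female Tet1-WT cells, at least 3.54-fold lower in females. The counts of the next 4 genes in females were 2 in Tet1-KO and 188 in Tet1-WT for Myrf (7.09), 7 and 145 for Dab2 (5.71), 47 and 1 for Snai1 (−6.7) and 139 and 1 for Mep1b (−6.38). The female ratios of Tet1-KO to Tet1-WT were 0.00833 (95% exact interval 0.001 to 0.0305) for Myrf, 0.0378 (0.0149 to 0.0799) for Dab2, 36.8 (6.29 to 1480) for Snai1 and 109 (19.2 to 4330) for Mep1b. In males Dab2 had 12.3 and 9.83 CPM in Tet1-KO and 4.46 and 6.47 CPM in Tet1-WT cells, and Mep1b had 11.0 and 12.7 CPM in Tet1-KO and 11.8 and 9.83 CPM in Tet1-WT cells. Adamts14, a procollagen peptidase, differed by −5.62, and Lck, a tyrosine kinase of T cells, by −4.53.

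Genes at higher levels also differed between the sexes. The differences were −2.17 for Nanos3, −2.03 for Gdf3, −2.38 for Tfap2c, −2.11 for Dppa2, 1.25 for Stag3, 2.85 for Cux1, 1.28 for Afap1 and −1.94 for Rsrp1. Cdk4, the cyclin D kinase, differed by −1.01, with 534 and 503 CPM in male Tet1-KO and 570 and 532 CPM in male Tet1-WT cells, beside 221 and 186 CPM in female Tet1-KO and 95.9 and 119 CPM in female Tet1-WT cells.

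The effect differed between E14.5 and E12.5 in males for 141 genes by the same kind of test. Several had no count in E14.5 male Tet1-WT cells, so that the fitted differences of 11.87 for Ednra, 9.54 for Hapln3, 9.39 for Sema3a and 8.92 for Mex3b depend on the prior count. In E14.5 males these were at least 11.5-fold (Ednra), 5.32-fold (Hapln3), 11.3-fold (Sema3a) and 4.81-fold (Mex3b) higher in Tet1-KO cells. At E12.5 the endothelin receptor Ednra had 3.11 and 3.87 CPM in Tet1-KO and 67.1 and 43.7 CPM in Tet1-WT cells. Prom1 differed by −7.43. Rps3a1, a ribosomal protein, differed by −1.73, with 719 and 653 CPM in E14.5 Tet1-KO and 1240 and 1380 CPM in E14.5 Tet1-WT cells, beside 1820 and 1990 CPM in E12.5 Tet1-KO and 1080 and 1110 CPM in E12.5 Tet1-WT cells. Hdac2, a histone deacetylase, differed by −1.65, Yeats4, a chromatin reader, by −1.62 and Srsf6, a splicing factor, by −1.4. The other differences were 2.0 for Gstm2, 1.92 for Afap1, 2.68 for Cux1, 1.31 for Pls3, 1.4 for Ldhb, 1.91 for Sparc, 6.15 for Grb10, 2.58 for Peg12, 3.01 for Bcl2l11 and 2.19 for the tetraspanin Cd81.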

How the results depend on the processing

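Counts of called genes depended on the setting. In E14.5 males the 18 calls became 368 with DESeq2, 112 with voom, 468 with no filter and 0 with the 4 libraries alone, and 0 to 44 with 1 library left out. For male minus female the 251 became 1093 with DESeq2, 555 with voom, 862 with no filter and 44 with the 8 libraries alone, and 15 to 329 with 1 library left out. For E14.5 minus E12.5 males the 141 became 956, 778, 1039 and 833 in the same order, and 19 to 136 with 1 library left out. The cause was not tested. With 1 library in a group, that library is assumed to vary like the other groups. Relative log expression scaling and the stricter filter kept all 3 counts within 1.5 times. Of 75 genes with a printed male change, 0 turned direction in any alternative, including all 18 called. Where the groups of a gene do not overlap, as in all 18, leaving out 1 library could hardly turn its change. Some of the 75 were also picked after their values were seen, so the 0 is no sign of stability. Without Tet1-WT library 2 the medians of some lists turned, from −0.25 to 0.22 for stress, −0.04 to 0.47 for mesenchyme and −0.22 to 2.22 for erythroid genes. In the differences 2 genes turned, Mael (male minus female, −0.76 to 0.13 with 1 library left out, the highest without male Tet1-WT library 2) and Sycp1 (−0.04 to 0.58, the lowest without female Tet1-KO library b). No paired analysis was possible because both Tet1-KO columns of a group carry the number 1. Called genes included 5 below 5 CPM in both groups, and 3 counts, the floor used for empty libraries, limit what their folds show.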
